A study of Homo sapiens with 2 samples.

Results

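The neuropilins, semaphorins and plexins are the ligands and receptors of semaphorin signalling, and 31 of their genes were read from 2 one-colour Agilent SurePrint G3 Human GE arrays. The 31 genes were taken by name as NRP, SEMA and PLXN genes, out of 19061 genes named on the arrays, and carried 45 probes. The family was selected on measured values of these same arrays, since NRP2 and SEMA6C stood among the largest increases. Its ratios between the arrays are therefore given as a description with no test.

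The arrays hold total RNA of SBC-3 cells, an adherent line of small-cell lung cancer (SCLC) that expresses HOTAIR, a long noncoding RNA of the HOXC cluster. One array was hybridised with RNA of #1 siHOTAIR-transfected cells, which received 1 of the study's siRNAs against HOTAIR. The other was hybridised with RNA of siGFP-transfected cells, the control, which received an siRNA against green fluorescent protein. With 1 array for each siRNA, the culture and the array cannot be told apart from the siRNA, and no P-value was computed. Nor can fewer cells of a type be told apart from less RNA per cell.

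Semaphorins are secreted or membrane-bound guidance proteins that steer growing axons, migrating cells and vessel sprouts. Plexins are their receptors, and their inner part acts on small GTPases that control the cytoskeleton and integrin adhesion. Most secreted class 3 semaphorins cannot bind a plexin firmly on their own and use a neuropilin as the binding coreceptor, whereas NRP1 and NRP2 also bind vascular endothelial growth factors (VEGF). In lung cancer, SEMA3B and SEMA3F are known as genes of a chromosome arm that is often lost.

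The signals are the processed intensities of the scanner software, in arbitrary units, and a probe's signal is the geometric mean of its spots. For a ratio, log2 signals were scaled to the 75th percentile of the array's spots, a signal of 650.3 for #1 siHOTAIR and 629.9 for siGFP. Where the software marked a spot as well above background it is called detected here, and a probe is detected if 50% or more of its spots are. Probes detected on either array, or on both, were compared. In all, 24117 of 42402 probes were compared, 21428 of them on both arrays. The dimmest detected spot had a signal of 37.3 for #1 siHOTAIR and 28.6 for siGFP. Where signals are paired, #1 siHOTAIR comes first. HOTAIR itself, read from 1 spot, had a signal of 108 with #1 siHOTAIR and 244 with siGFP, a log2 ratio of -1.22, so that it decreased by 57.2%. ACTB, a reference gene, had log2 ratios of -0.02 and -0.05 on its probes. GAPDH, another reference gene, had signals of 60520 and 58620. Of 8 neuroendocrine markers of SCLC, 4 were compared (CHGA, DLL3, NCAM1 and NEUROD1), while INSM1, SYP and UCHL1 were among those not detected. Their summed signal was 1052 for #1 siHOTAIR and 994.6 for siGFP. CHGA, at 72.2 against 10.2, was 2.44-fold higher with its siGFP side raised to the dimmest detected spot. NEUROD1, at 213 against 372, had a log2 ratio of -0.85. The summed signals of the other lists were 3313 and 3181 for 5 epithelial markers, 164 and 158 for 5 endothelial, 263 and 227 for 5 leukocyte and 4620 and 4177 for 5 fibroblast markers. Of these lists 4, 1, 2 and 2 genes were compared, and VWF, CD3E and DCN were among those not detected. Of the compared fibroblast markers, COL1A1 had a log2 ratio of 0.96 and COL1A2 of -0.04. The sums are unscaled, and KRT8 (2825 and 2557) and COL1A2 (3758 and 3741) make up most of theirs. Near-even sums can thus hide members that differed, as KRT18 at a log2 ratio of -0.44 and PTPRC at 0.75 on its brightest probe. That PTPRC probe had 1 spot. Another PTPRC probe, detected with siGFP only, lay the other way, at -0.83 at its own level. The part of other cell types in the results below was not tested.

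Of the 45 probes of the family, 24 were compared, 21 of them on both arrays and 3 on 1 array. The other 21 were not detected on either array, and no fold is given for them. By gene, 18 of the 31 could be compared and 13 could not. Counting dim signals at their own level, 5 of the 24 probes had a ratio of 2-fold or more towards #1 siHOTAIR and 0 towards siGFP, where 3.30% of all compared probes were higher and 4.10% were lower. The 5 probes belong to NRP1, NRP2 (2 probes), SEMA3D and SEMA6C. SEMA3D was detected with #1 siHOTAIR only, and with dim signals at their bound, or with probes detected on both arrays only, the count was 4 without it. With each gene read from its brightest compared probe, 3 of 18 genes had such a ratio at their own level (NRP1, NRP2 and SEMA3D) and 0 the reverse, beside 2.74% higher and 3.41% lower among all 13014 genes compared. At the bound NRP1 and NRP2 were left, 2 genes. Nothing is read from these counts, since the family was chosen by the same contrast. The median log2 ratio of the 18 genes was 0.11, with 10 above 0 and 8 below, against 0.02 over all genes compared.

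**Figure D1:**
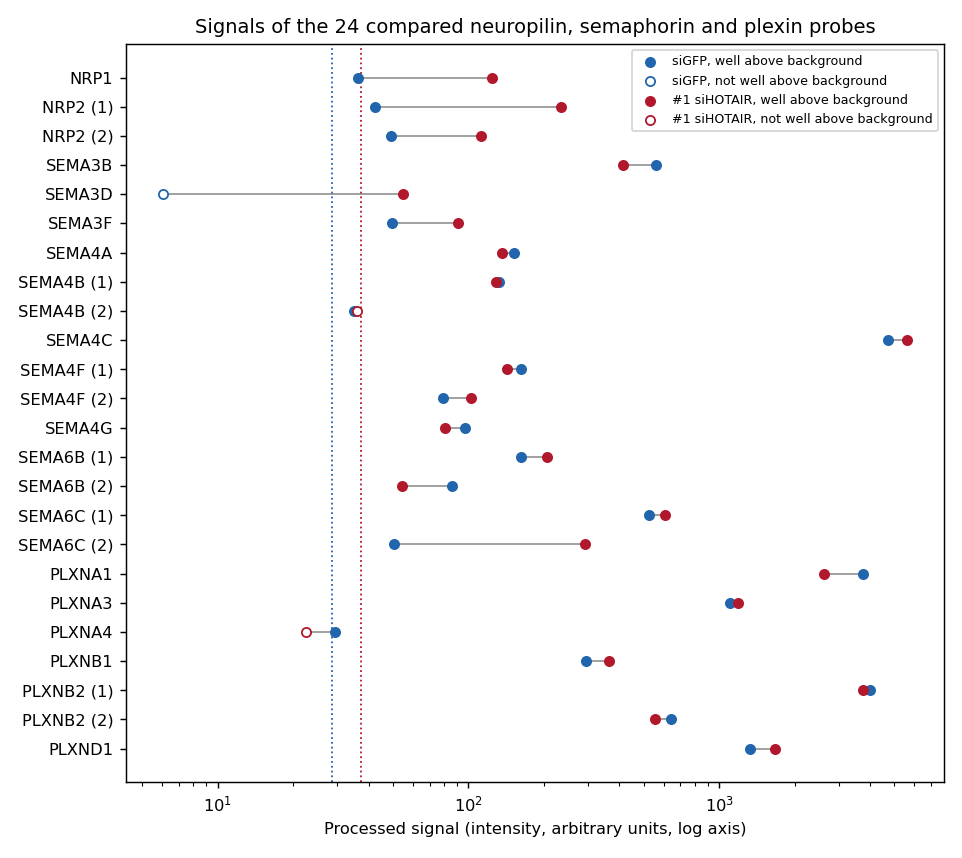
Processed signal (log axis) of the 24 compared probes in #1 siHOTAIR-transfected (red) and siGFP-transfected (blue) cells, 1 array each; numbers in brackets separate probes of a gene, open points are not detected, and dotted lines mark the dimmest detected spot on each array. The wide gaps are those of NRP1, NRP2, SEMA3D and the second SEMA6C probe, whose siGFP signals all lie between 6.05 and 50.4, while the bright plexin and SEMA4C probes lie close together.

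Each of the coreceptors, the neuropilins, had a probe that was at least 2-fold higher with #1 siHOTAIR. For both, the probe designed on another transcript was not detected. Which forms of the neuropilins the compared probes read was not tested. NRP2 was read from 3 probes. The first, with 2 spots, had a signal of 235 with #1 siHOTAIR against 42.2 with siGFP, a log2 ratio of 2.43 or 5.39-fold. Its spots had signals of 230 and 240 against 38.9 and 45.7, with log2 ratios of 2.52 and 2.35, so the spots did not overlap between the arrays. Here and below, such spots are repeats within 1 array and not replicates. How many of all probes separate in this way was not counted. The second NRP2 probe, with 1 spot, had signals of 112 and 49.3, giving a log2 ratio of 1.14 or 2.20-fold, and was the probe of the family nearest to the 2-fold threshold from above. The third, designed on another transcript, gave 29.0 and 20.6 and was not detected on either array. Both NRP2 probes that could be compared were thus higher with #1 siHOTAIR, by different amounts.

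Repeated spots of similar signal, taken from probes with 10 spots, give the first NRP2 ratio a measurement SD of 0.25 and the second 0.34, and the scanner software's error estimate gives 0.22 and 0.34. These SDs hold the error within an array and not the spread between cultures. Among probes detected on both arrays, ordered from the highest ratio down, the first NRP2 probe was 7th of 21428 and the second 198th. Among 2652 genes with at least 2 probes detected on both arrays, 67 had a probe at least 2-fold higher. In 9 of these 67 genes (13.4%) at least 2 probes were higher, and NRP2 is 1 of the 9. Since the family was chosen for the NRP2 increase on these arrays, its ranks and this count are description and lend no support.

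NRP1, the other neuropilin and a coreceptor for SEMA3A, was compared by 1 of its 2 probes. That probe, with 2 spots, gave 124 against 36.4, which is a log2 ratio of 1.72 or 3.30-fold, with a measurement SD of 0.27 and a software SD of 0.25. Its spots had signals of 143 and 107 with #1 siHOTAIR against 35.2 and 37.7 with siGFP, giving log2 ratios of 1.98 and 1.47. The #1 siHOTAIR spots both lay above the siGFP spots, of which 1 of 2 was detected. The second NRP1 probe, designed on another transcript, gave signals of 12.1 and 6.19 and could not be compared. With normexp background correction, NRP1 and the second NRP2 probe were below 2-fold, at log2 ratios of 0.79 and 0.55, and without background correction at 0.69 and 0.46. The first NRP2 probe was at 1.38 and 1.25 under these settings, still above 2-fold.

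**Figure D2:**
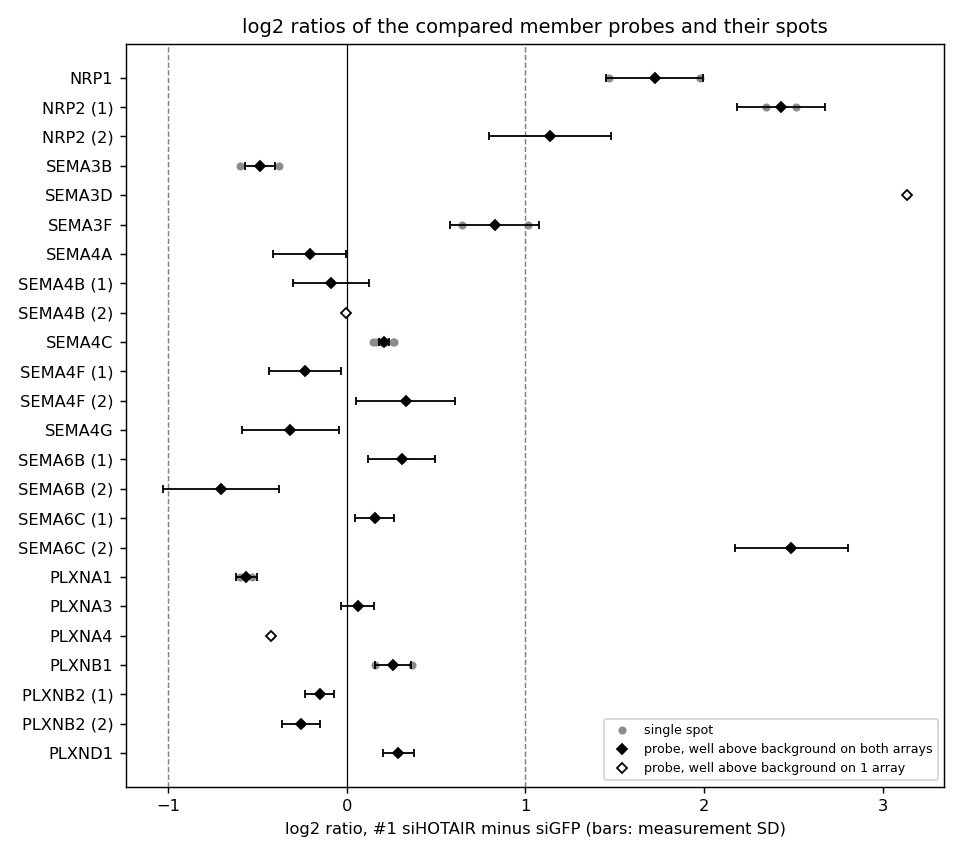
The log2 ratio (#1 siHOTAIR minus siGFP) of each compared probe (diamonds) with its spots (grey), where bars show the measurement SD from repeated spots for probes detected on both arrays, and dashed lines mark 2-fold. NRP1, both NRP2 probes and the second SEMA6C probe lie above 2-fold, and no probe lies below -1. SEMA3D is drawn at its own level, although at its bound it is 1.86-fold higher.

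Of the 7 class 3 semaphorins, the secreted ligands that use neuropilins, 3 could be compared. SEMA3F, a ligand of NRP2, had a signal of 91.0 with #1 siHOTAIR against 49.6 with siGFP, a log2 ratio of 0.83 or 1.78-fold, and was the probe nearest to the 2-fold threshold from below. Its spots had signals of 85.9 and 96.4 against 41.2 and 59.7, with log2 ratios of 1.01 and 0.65, and did not overlap between the arrays. The measurement SD of the SEMA3F ratio was 0.25. SEMA3B, its neighbour in class and like it lost with the chromosome arm in lung cancers, lay in the other direction. Its signals were 414 and 561, with a log2 ratio of -0.48 or 1.40-fold lower, with a measurement SD of 0.08. The SEMA3B spots, 428 and 400.0 against 538 and 585, gave log2 ratios of -0.38 and -0.59.

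SEMA3D, which guides neural crest and endothelial cells, was detected with #1 siHOTAIR only. Its 1 spot had a signal of 55.0 against 6.05, and with the siGFP side raised to the lowest detected signal it was 1.86-fold higher. Spots brighter than that signal can be undetected, as was an NRP1 spot of 37.7 with siGFP, so this bound is no strict minimum. This bound lies below 2-fold, and the software SD of the ratio at its own level was 1.47. For a probe compared through 1 array alone, the filter itself favours a difference. SEMA3A, SEMA3C, SEMA3E and SEMA3G were not detected on either array, with signals from 7.94 to 9.81 for #1 siHOTAIR and from 6.0 to 6.61 for siGFP.

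The class 4 semaphorins, membrane-bound ligands mostly of B plexins, were close to even. Of 6 genes 5 were compared, by 7 probes, none of them at least 2-fold higher or lower, and the gene ratios ran from -0.32 to 0.21. SEMA4C, a ligand of PLXNB2, was read from 7 usable spots of 10. Its signals ran from 5453 to 5825 with a median of 5591 with #1 siHOTAIR, and from 4474 to 4899 with a median of 4744 with siGFP. The spots did not overlap, and all 7 log2 ratios, from 0.15 to 0.26, were above 0. These spots hold the error within 1 array and not the spread between cultures, so they lend a small difference no replicate support. Averaged, SEMA4C was 1.15-fold higher with a log2 ratio of 0.21 and a measurement SD of 0.03, the smallest measurement SD of the 24 compared probes.

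SEMA4A, known from immune cells, had a signal of 136 against 152, a log2 ratio of -0.21 with a measurement SD of 0.21. SEMA4G had 80.3 against 96.7, a log2 ratio of -0.32 with an SD of 0.27. SEMA4B had 129 against 132 on its first probe, a log2 ratio of -0.09. Its second probe, with 35.9 against 34.9, was detected with siGFP only and is given no fold. For SEMA4F the probes pointed in opposite directions, with 142 against 162 and 103 against 79.1, log2 ratios of -0.23 and 0.33 with SDs of 0.20 and 0.28. SEMA4D, the ligand of PLXNB1, was not detected on either array by either of its probes.

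Among the membrane-bound class 6 semaphorins, ligands of A plexins, SEMA6C was read from 2 probes that carry the same transcript accession and did not give the same value. The first, with 1 spot, had a signal of 606 with #1 siHOTAIR against 526 with siGFP, a log2 ratio of 0.16 or 1.12-fold with a measurement SD of 0.11. The second, also with 1 spot, had 292 against 50.4, a log2 ratio of 2.49 or 5.61-fold with a measurement SD of 0.31 and a software SD of 0.28. With normexp background correction this ratio was 1.48 and without background correction 1.33. The gap between the probes was several times these SDs, and neither had a repeat spot to set beside it. The second SEMA6C probe was 3rd of the 21428 probes in order of ratio, a rank that restates the choice of the family. Of the 67 genes with a probe at least 2-fold higher, 41 had, as SEMA6C did, another probe whose log2 ratio was within 0.5 of 0.

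SEMA6B also had probes in opposite directions. Its first probe had 206 against 161, a log2 ratio of 0.31 with a measurement SD of 0.19, and its second 54.5 against 85.8, a log2 ratio of -0.70 with an SD of 0.33. SEMA6A and SEMA6D were not detected on either array, and the same held for the class 5 semaphorins SEMA5A and SEMA5B. SEMA7A, a membrane-anchored semaphorin that binds integrins, was read from 10 spots, of which 2 were detected on each array. Its signals ran from 19.5 to 48.8 with a median of 29.2 for #1 siHOTAIR and from 7.81 to 33.3 with a median of 19.7 for siGFP. These ranges overlapped, and 6 of the 10 spot ratios were above 0.

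The plexins, the signalling receptors, held no probe that was 2-fold higher or lower. Of 9 genes 6 were compared, by 7 probes, and the gene ratios ran from -0.56 to 0.29 with a median of -0.05, or of 0.16 with PLXNA4, detected with siGFP only, at its bound. PLXNA1, a receptor that pairs with neuropilins, had the lowest ratio, with a signal of 2618 with #1 siHOTAIR against 3741 with siGFP. Its log2 ratio was -0.56 or 1.48-fold lower with a measurement SD of 0.06 and a software SD of 0.14. The spots, 2626 and 2611 against 3841 and 3644, gave -0.60 and -0.53, and the arrays did not overlap. How many of all probes separate in this way was not counted. The ratio of PLXNA1 was below 0, and those of the compared neuropilin probes were above 0. Any relation between them was not tested.

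PLXNA3, another partner of neuropilins, had a signal of 1190 against 1105, a log2 ratio of 0.06 with a measurement SD of 0.09. PLXNA4 had 1 of 5 probes detected, with siGFP only, at signals of 22.5 and 29.3, and PLXNA2 had none. PLXNB1, the receptor of SEMA4D, had 364 against 294, a log2 ratio of 0.26 with an SD of 0.10 and spots of 0.36 and 0.16. PLXNB2, the receptor of SEMA4C, had 3731 against 4010 and 555 against 641 on its probes, log2 ratios of -0.15 and -0.26 with measurement SDs of 0.08 and 0.11 and software SDs of 0.20 and 0.21. PLXND1, an endothelial receptor that SEMA3E binds without a neuropilin, had 1672 against 1326. Its log2 ratio was 0.29 with a measurement SD of 0.09 and a software SD of 0.20. PLXNB3 and PLXNC1 were not detected on either array, PLXNC1 at signals of 18.0 and 6.42.

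Since single spots carry much of these values, the place of each spot on the array was read. The first 144 of the 384 rows held 11766 spots detected on both arrays, 1.83% of them at least 2-fold higher. In the other rows this was 1.28% of 19608 such spots. The shares at least 2-fold lower were 1.79% and 1.66%. Both spots of the first NRP2 probe (rows 4 and 115), the spots of both SEMA6C probes (rows 74 and 94) and the SEMA3D spot (row 80) lay in the first rows. NRP1 had 1 spot on each side, in row 140 with a log2 ratio of 1.98 and in row 352 with 1.47. The second NRP2 probe lay in row 316. Outside the first rows, NRP1 and NRP2 were at least 2-fold higher, at 1.47 and 1.14, each on 1 spot. That NRP1 spot was not detected with siGFP, and that NRP2 spot belongs to the second probe. SEMA6C and SEMA3D had no spot there. The spots of other probes within 5 rows and 5 columns of these spots had median log2 ratios from -0.02 to 0.09, close to 0 in every case.

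**Figure D3:**
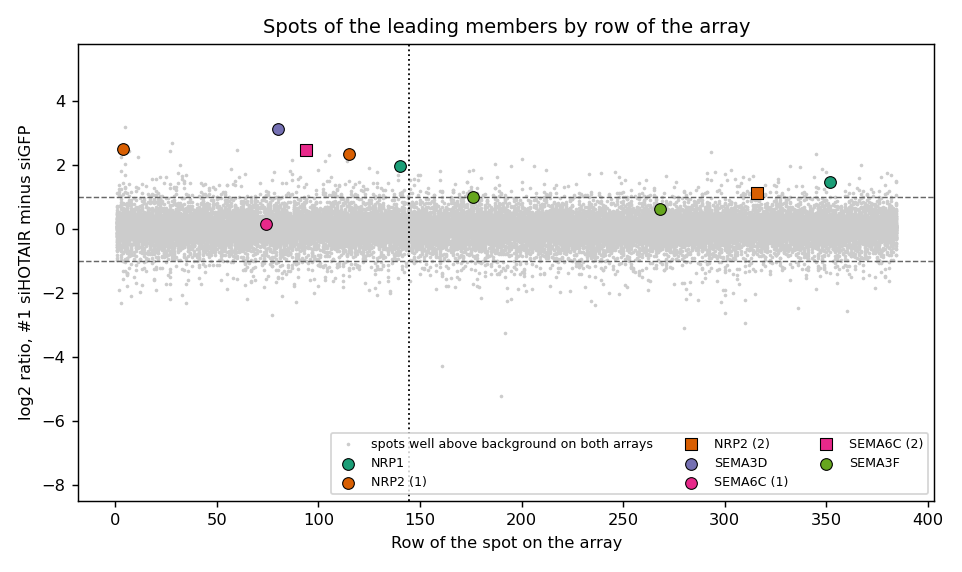
The log2 ratio of single spots by row of the array, for all spots detected on both arrays (grey) and for the spots of NRP1, NRP2, SEMA3D, SEMA3F and SEMA6C, with circles for a gene's first and squares for its second probe; the dotted line ends the first 144 rows and dashed lines mark 2-fold. The SEMA3D, SEMA6C and brighter NRP2 spots lie to the left of the dotted line, and to the right of it 1 spot each of NRP1, NRP2 and, at 1.01, SEMA3F lies above 2-fold.

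The promoters of the 2 genes that led the choice of the family are shown for their sequence. RefSeq windows of the 250 bases before a transcription start, on GRCh38.p14, were matched for 27 of the 31 genes (48 windows), and NRP1, SEMA3A, SEMA6A and SEMA6B had no entry. In the sequences, printed 5′ to 3′ on the gene's strand, capitals mark the GC box GGGCGG, to which SP1-type factors bind, and its reverse complement CCGCCC. The NRP2 window lies at chr2:205682251-205682500 on the plus strand, with 70.0% G and C, 29 CG pairs and 3 GC boxes, of which the first and second share a base. The SEMA6C window lies at chr1:151146632-151146881 on the minus strand, with 73.2% G and C, 24 CG pairs and 4 GC boxes.
NRP2: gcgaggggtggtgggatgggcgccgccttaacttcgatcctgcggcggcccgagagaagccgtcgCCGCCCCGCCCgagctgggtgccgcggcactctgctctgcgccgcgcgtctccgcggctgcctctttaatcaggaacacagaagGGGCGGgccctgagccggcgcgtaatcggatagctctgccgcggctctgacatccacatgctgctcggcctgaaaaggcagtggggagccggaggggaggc
SEMA6C: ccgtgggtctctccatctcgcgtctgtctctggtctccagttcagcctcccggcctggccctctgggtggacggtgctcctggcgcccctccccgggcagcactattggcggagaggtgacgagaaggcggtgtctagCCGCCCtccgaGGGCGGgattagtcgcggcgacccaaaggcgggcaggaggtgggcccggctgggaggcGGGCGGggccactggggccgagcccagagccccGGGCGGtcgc

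Over the 48 windows the median content was 64.8% G and C with 15 CG pairs, against 58.0% and 11 over all 35114 windows of 27303 genes. A GC box on either strand was in 30 of the 48 windows (62.5%), against 42.6% of all windows. An E-box of the letters CAGCTG was in 6 (12.5%), against 14.0%. The parts of the RE1 element, which the repressor REST binds, were searched on both strands. The left part, TTCAGCACC, was in 0 windows of the family and 0.288% of all, and the right part, GGACAGC, was in 1 window, that of SEMA5A (2.08%), against 4.76%. The E-box and both RE1 parts hold the letters CAGC, on which the E-box and the right part can overlap. A match says only that the letters are in the window.

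The genes that act with the family were read from a list of 55 genes in 6 groups. Of these, 40 could be compared and 0 were at least 2-fold higher or lower, beside 2.74% higher and 3.41% lower among all genes compared. At such shares few of 40 genes would pass, so nothing is read from this count. The median log2 ratio of the 40 genes was 0.07, with 24 above 0 and 16 below, close to the 0.02 of all genes. By probe, with dim signals at their own level, 0 of 53 had a ratio of 2-fold or more upwards and 1 downwards. Among all compared probes 3.30% were higher and 4.10% lower. The bound of the 1 lower probe lies below 2-fold.

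That probe belongs to VEGFA, the main growth factor of vessels, which binds neuropilins. Its signal was 25.6 with #1 siHOTAIR against 58.2 with siGFP, detected with siGFP only, and it was 1.61-fold lower at its bound. The brighter VEGFA probe had 184 against 241, a log2 ratio of -0.43 with a measurement SD of 0.18, and pointed the same way. PGF, a VEGF family ligand of FLT1 and neuropilins, had 3252 against 2211, a log2 ratio of 0.51 with an SD of 0.06. VEGFB had a log2 ratio of 0.14 and FLT4, the receptor of lymphatic vessels, of 0.16. VEGFC, VEGFD, FLT1 and KDR could not be compared, and KDR is 1 of the receptors with which neuropilins act as VEGF coreceptors.

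Among the coreceptors and partner receptors, NRCAM, an adhesion molecule that joins NRP2 in the SEMA3F receptor of neurons, had 85.6 against 44.0. Its log2 ratio of 0.91 with a measurement SD of 0.27 was the highest of the 40 genes. MET, a receptor kinase that associates with plexins, had 242 against 164, a log2 ratio of 0.52 with an SD of 0.06, and ERBB2 had -0.15. For the small GTPases, RHOD had 647 against 1020, a log2 ratio of -0.70 with an SD of 0.07. RND1, which binds plexins directly, had 19.2 against 32.0, was detected with siGFP only, and had a log2 ratio of -0.79 at its own level and no fold. ARHGAP35, which inactivates RHOA, had the highest ratio of that group at 0.22, and RAC1 at 0.15 and RHOA at -0.20 lay near 0. FARP1, an exchange factor that works with class A plexins, had 477 against 491 on its brighter probe (-0.09) and 138 against 68.0 on another (0.97), so its probes were apart.

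Of 14 kinases and cytoskeletal effectors 12 were compared. ROCK1, a kinase that acts on the cytoskeleton, had the highest ratio of 0.43, and LIMK1, which phosphorylates cofilin, the lowest of -0.51, with signals of 506 against 697. FYN, a kinase of the semaphorin pathway in neurons, had -0.36 and CFL1, cofilin itself, -0.18. Of the CRMP proteins, which carry the semaphorin signal to microtubules, CRMP1 had 51.5 against 29.5. It was detected with #1 siHOTAIR only, 1.69-fold higher at its bound, which was its own level. DPYSL4 lay at -0.15 and DPYSL2 at -0.04. DPYSL5 lay at -0.04 on its brightest probe and at 0.63 with a measurement SD of 0.07 on another, both detected on both arrays. FURIN, a convertase that cleaves class 3 semaphorins, had 33.2 against 57.1 and was detected with siGFP only, 1.58-fold lower at its bound. PCSK7, another convertase, had 0.07.

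**Figure D4:**
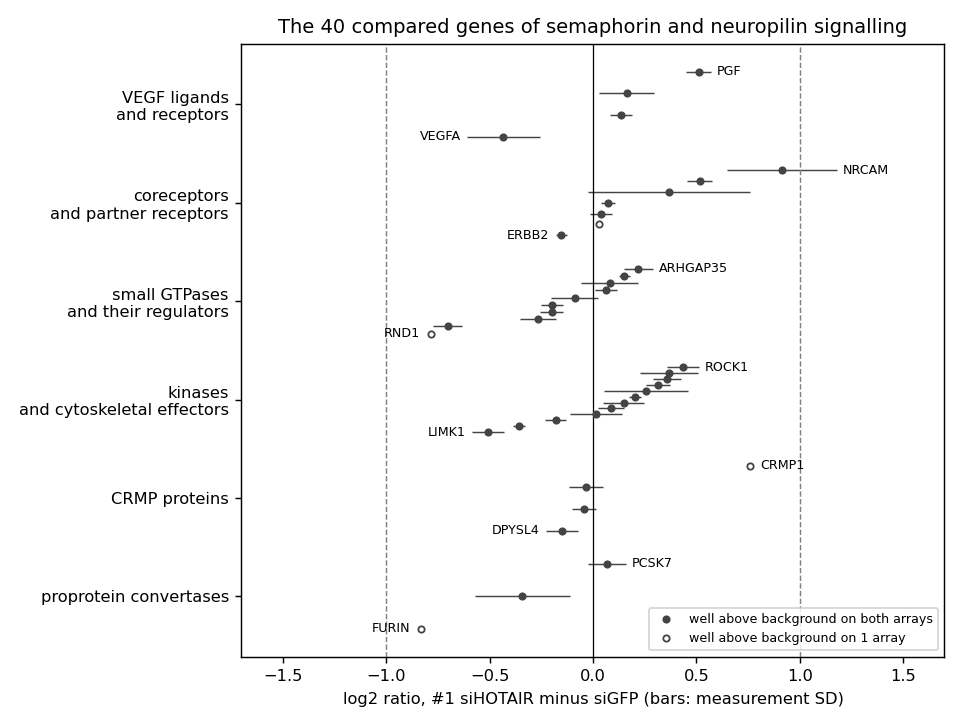
The log2 ratio (#1 siHOTAIR minus siGFP) of the 40 compared genes that act with the family, by group, with the lowest and highest gene of each group named; bars show the measurement SD for genes detected on both arrays, open points are detected on 1 array, and dashed lines mark 2-fold. All 40 genes lie between the dashed lines, with NRCAM at 0.91 highest and FURIN at -0.83 lowest.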

How the data were processed

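RNA of 1 #1 siHOTAIR-transfected and 1 siGFP-transfected culture was labelled with Cy3 and hybridised to 1 array each. The authors extracted the spots with Agilent Feature Extraction 10.10.1.1, and the deposited processed signal is an intensity with the background subtracted, not normalised between arrays. A deposited value table of intensity equals the background-subtracted signal (largest difference 0). The methods name GeneSpring and a 2-fold change with a P-value threshold. No P-value was computed here, since each group had 1 array.

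Here log2 signals were set against the 75th percentile of each array over the 58717 spots that are not controls. Outlier spots (393 and 375) were left out, no spot was saturated, and a probe's spots were averaged as log2 values. Where 1 array alone detected a probe, its bound uses the dimmest detected spot of the other array, or the probe's own signal if brighter, while counts use its own level. Some undetected spots were brighter than the dimmest detected spot, so a bound is no strict minimum. The measurement SD was interpolated between 6 signal levels of probes with 10 spots. For bright probes the software SD was larger, as 0.20 against 0.09 for PLXND1 and 0.07 against 0.03 for SEMA4C. Probes that neither array detected had a median log2 ratio of 0.34, so such ratios are offset. Accessions were matched to RefSeq symbols, which named 58.5% of the probes. Named genes were all members, HOTAIR, ACTB, GAPDH, pathway genes with a probe changed 2-fold, and the lowest and highest gene of each pathway group. Other pathway genes (VEGFB, FLT4, MET, RHOD, RAC1, RHOA, FARP1, FYN, CFL1, DPYSL2, DPYSL5) and markers were named after their values were seen. Markers not named entered the summed signals only.

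The members and lists were chosen with earlier results of these data known. Counting of changes was tested on simulated data. The outcome of that test is not reported here, so it lends no support to the counts, least of all for dim member probes. Analysis used python 3.11.15, numpy 2.4.6, pandas 2.3.3, R 4.3.3 and limma 3.58.1 (normexp). The number of arrays limits the precision. Alternatives were other scalings, background corrections, filters, thresholds and probe choices.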

Additional observations from a re-analysis of the deposited data

How the results depend on the processing

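No paired analysis was possible because each siRNA had 1 array, so no replicate could be left out either. Of the 13 alternatives, none turned the direction of the HOTAIR ratio, and the NRP1, NRP2 and SEMA6C probes that were at least 2-fold higher stayed above 0 wherever they had a value. The first NRP2 probe (1.25 to 2.55) was at least 2-fold higher in 12 of 12 alternatives with a value. So was the second SEMA6C probe (1.33 to 2.61). For NRP1 (0.69 to 1.84) and the second NRP2 probe (0.46 to 1.26) this held in 11 of 13. Changes of threshold, filter, bound or probe choice leave the ratio of a probe detected on both arrays as it is, HOTAIR included. Those alternatives could not lower these tallies. Only changes of scaling, of background correction or of the spots used bear on them. The number of changed member probes, 5, was 3 with normexp, 3 without background correction, 2 of 17 with only spots outside the first rows, 8 of 45 with no filter, and 4 both for probes above background on both arrays and with the dim side at its bound. The number of changed member genes, 3, was 2 with normexp, without background correction, with the outside spots, for probes above background on both arrays and with the dim side at its bound, and 6 without the filter, where the median of the member genes was 0.344. With only the outside spots this median was -0.05. The number of changed pathway genes, 0, was 1 with scaling to spike-in RNA (NRCAM, 1.03), 1 with the outside spots (RND1, -1.26), 2 with no filter (FES and RND2) and 5 at 1.5-fold. HOTAIR was at -0.764 with normexp and -0.726 without background correction. By the median of a gene's probes SEMA6C was at 1.32 and NRP2 at 1.78. Over all probes, the 795 higher and 989 lower became 993 and 799 with spike-in scaling, which shifted all genes by 0.12. Of 24117 probes they were 227 and 187 with normexp and 173 and 154 without background correction. Outside the first rows they were 358 and 549 of 16211. For probes above background on both arrays they were 321 and 329 of 21428, and with no filter 1933 and 1866 of 42402. Of 24117 probes they were 2050 and 2348 at 1.5-fold, 377 and 411 at 3-fold, and 572 and 498 with the dim side at its bound. The cause of these shifts was not tested. Shares over all genes were not computed for the alternatives, so nothing is read from the counts of member and pathway genes above. Signals near background are a limit, since 52.1% of the probes were well above background with #1 siHOTAIR and 55.3% with siGFP.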
